A study of Mus musculus with 9 samples.

Results

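Notch signalling was examined through 10 genes in bulk RNA-seq of whole retina from P21 mice. The genes were chosen by name as rows of the deposited table, with earlier results of these data known, and make up 10 of its 55487 rows. They are the receptors Notch1, Notch2 and Notch3, the ligands Dll1, Dll4 and Jag1, the target genes Hes1, Hes5 and Hey1, and Hes6, a HES family member that opposes HES1. Each row was matched by identifier to GENCODE release 21 for mouse (GRCm38), and no symbol was present in more than 1 row.

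The mice were of the C57 BL/6J strain and fell into 3 genotypes, each with 3 libraries. Cre- animals lacked the Chx10::Cre-GFP transgene, which expresses Cre in retinal progenitors, and came from Cre- breeders. The tHet animals carried the transgene and 1 floxed and 1 wild-type allele of each of Tet1, Tet2 and Tet3, the enzymes that oxidise methylated cytosine. Tet tcKO animals carried the transgene and floxed alleles only at all 3 loci. The retinas of a pair of animals were pooled for each library. The transgene is known to act in a mosaic manner, and cells that never expressed Cre, together with vessels and microglia that do not arise from retinal progenitors, keep their alleles. The study states that Cre+ animals were in-crossed so that tHet and Tet tcKO animals all had a pair of functional transgene copies. Cre- therefore differs from the other genotypes in transgene and breeding line as well, and these cannot be told apart. The comparison of Tet tcKO with tHet holds the transgene constant.

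Notch receptors sit in the cell membrane and are activated by Delta-like and Jagged ligands on a neighbouring cell. Cleavage by an ADAM protease and by gamma-secretase frees the intracellular domain, which joins the DNA-binding protein RBPJ and a Mastermind coactivator to switch on Hes and Hey genes. HES proteins repress proneural genes such as Atoh7. In the developing retina the pathway keeps progenitors from differentiating and restrains photoreceptor and ganglion cell production, in the mature retina several of its genes are expressed in Müller glia, and in vessels Notch1, Notch3, Dll4 and Jag1 act between endothelial and mural cells.

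Reads counted on genes numbered 9627927 to 21108256 per library, so that 1 read was worth 0.0474 to 0.104 CPM, the reads of a gene scaled to the total of its library. Across genes, pairs of libraries of the same genotype had Pearson's r of 0.966 to 0.987. In Tet tcKO 3 a ribosomal RNA transcript, CT010467.1, took 28.7% of the counts, which lowers the CPM of its other genes. The TMM scaling factor was 0.780 for Tet tcKO 3, against 1.06 and 1.14 for Tet tcKO 1 and 2. The CPM below are not scaled by it. Levels are given as CPM, and differences as log2 fold changes of CPM + 0.5 from a limma fit. It covered the 21330 genes that reached 0.5 CPM in 3 or more libraries. A gene was called where it moved by 1 or more on the log2 scale in either direction and had a Benjamini-Hochberg adjusted p under 0.01, the thresholds of the study. All 10 genes passed the filter, but Hes5 did so only through Tet tcKO. It reached 0.5 CPM in 1 Cre-, 0 tHet and 3 Tet tcKO libraries. Of the targeted genes, Tet3 was at 213, 268 and 223 CPM in Cre-, at 268, 288 and 155 CPM in tHet, and at 108, 152 and 99.2 CPM in Tet tcKO. The difference from Cre- in Tet tcKO was -0.99 on the log2 scale (limma adjusted p = 0.0174), which missed the fold threshold and the adjusted p of the call. Markers of rods and cones were present in every library. Tet1 and Tet2 overlapped between all genotypes, at 51.0 to 74.9 CPM for Tet1 and 152 to 221 CPM for Tet2 in Tet tcKO. Reads over the exons that remain after recombination count toward all 3 genes.

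The upstream sequence is shown for Hes5, the classical direct target of RBPJ, and for the genes that were called in any comparison, since these are the members on which the results turn. The windows are the 250 bases before a start site in RefSeq (GRCm38.p6), read 5′ to 3′ on the strand of the gene, and are shortened where an annotated exon of a coding gene enters them. The stretch printed for Jag1 therefore ends 124 bases before its start site, and that for Notch1 ends 2 bases before its own. Capitals mark the RBPJ core motif TGGGAA or, where it lies on the other strand, TTCCCA. The Hes5 window is chr4:154960673-154960922 (+ strand), that of Dll1 is chr17:15376933-15377182 (- strand), that of Notch1 is chr2:26503825-26504072 (- strand), and that of Jag1 is chr2:137116645-137116770 (- strand).
Hes5: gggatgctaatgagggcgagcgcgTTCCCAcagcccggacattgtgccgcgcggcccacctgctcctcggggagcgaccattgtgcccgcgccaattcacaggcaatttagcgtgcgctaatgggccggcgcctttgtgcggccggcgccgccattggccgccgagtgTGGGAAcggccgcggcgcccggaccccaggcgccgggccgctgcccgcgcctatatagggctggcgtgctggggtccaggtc
Dll1: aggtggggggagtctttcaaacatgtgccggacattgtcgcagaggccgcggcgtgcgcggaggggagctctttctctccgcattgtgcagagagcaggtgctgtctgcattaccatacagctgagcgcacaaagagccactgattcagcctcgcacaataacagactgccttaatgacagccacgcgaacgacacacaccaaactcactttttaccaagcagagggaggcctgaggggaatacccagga
Notch1: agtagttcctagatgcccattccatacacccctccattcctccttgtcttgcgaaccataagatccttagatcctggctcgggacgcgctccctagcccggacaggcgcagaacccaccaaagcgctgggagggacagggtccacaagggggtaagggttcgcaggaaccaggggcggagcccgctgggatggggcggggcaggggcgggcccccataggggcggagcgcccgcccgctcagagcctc
Jag1: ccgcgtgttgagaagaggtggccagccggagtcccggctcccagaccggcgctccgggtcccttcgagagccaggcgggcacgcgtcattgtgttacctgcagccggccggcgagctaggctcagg

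Windows were found in RefSeq for 8 of the 10 genes, Hes1 and Hey1 having no entry in the table used. Among the 10 windows of these genes, the RBPJ core occurred only in that of Hes5, which held it at 226 and 82 bases before the start site. Of all 32851 windows of this length, 21.6% held the motif on either strand. The HES class C site, CACGCG read on either strand, occurred in a window of Notch2, Dll1, Dll4 and Jag1, against 7.62% of all windows. The HES N-box, CACNAG read on either strand, occurred in a window of Notch1, Notch2, Notch3, Dll4 and Hes6, against 36.7% of all windows. No match of a motif shared bases with a match of another in these windows. CpG dinucleotides, on which methylation acts, were counted over the full 250 bases, with 32 in Hes5, 34 in Notch2, 20 in Jag1, 16 in Notch1 and 13 in the Dll1 window shown. The 10 windows of the 8 genes held 12 to 34. The median over all windows was 6, with quartiles of 2 and 16. CACGCG itself contains CpG, so the share of all windows is not a matched background for it, and enrichment was not tested. DNA methylation was not analysed here.

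Against Cre-, the Delta-like ligand gene Dll1 and the receptor gene Notch1 rose in Tet tcKO, by 3.09-fold and 2.40-fold on the log2(CPM + 0.5) scale. The Jagged ligand gene Jag1 went the other way, at 2.49-fold lower, short of the call. In bulk RNA, fewer cells of a type and less RNA per cell cannot be told apart. The target genes Hes1, Hes5 and Hey1, and Hes6, were not called. Thus 2 of the 10 genes were called higher and 0 lower, where 2.03% of all genes tested were called higher and 1.57% lower. At an adjusted p under 0.05 with no fold threshold, 4 genes passed (Dll1, Notch1 and Notch2 higher and Jag1 lower), where 6.5% of all genes did. The median log2 fold change of the 10 genes was 0.73, against 0.00 for all genes tested. In 5 genes every Tet tcKO library lay above every Cre- library, and in 1 every one lay below, where 10% and 9.6% of all genes were so ordered. Hes5, which passed the filter only through Tet tcKO, is among the higher genes.

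Against tHet, 2 genes were called higher (Dll1 and Notch1) and 1 lower (Jag1), where 1.39% and 1.61% of all genes were called in these directions. The adjusted p was under 0.05 for 5 genes, the called ones with Hes5 and Hey1, where 5.95% of all genes passed. Hes5 passed the filter only through Tet tcKO, which tilts its result toward Tet tcKO, and it is counted here as a description. The libraries of Tet tcKO and tHet did not overlap for 5 genes that were higher and 1 that was lower, where 7.35% and 9.68% of all genes were so ordered. Hes5 is among the higher genes, and the same limit applies to it. The median log2 fold change of the 10 genes was 0.40, against -0.06 for all genes tested. Both comparisons share the Tet tcKO libraries, and their values are therefore not independent.

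**Figure D1:**
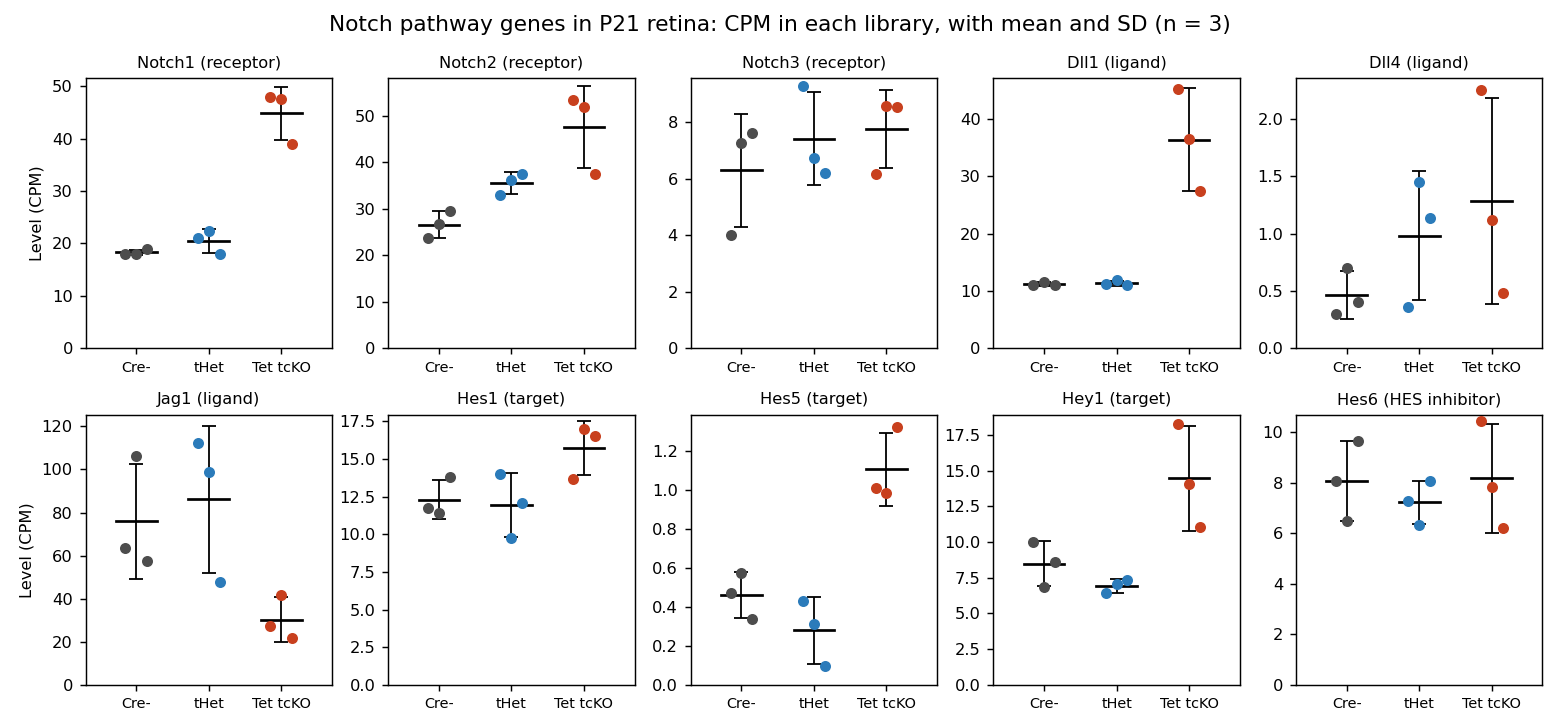
CPM of each of the 10 genes in each library on linear axes from 0, with points for the 3 libraries of Cre-, tHet and Tet tcKO, a horizontal line at the mean and a bar of 1 SD. Dll1 lies between 27.4 and 45.3 CPM in Tet tcKO and between 11.0 and 11.8 CPM in every other library, while Jag1 is lowest in the Tet tcKO libraries.

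Among the receptors, Notch1 (ENSMUSG00000026923.15, chr2:26457903-26516663), the receptor most used in retinal progenitors, was at 18.0, 18.0 and 18.9 CPM in Cre-. It was at 21.1, 22.3 and 18.0 CPM in tHet and at 47.9, 47.6 and 39.0 CPM in Tet tcKO. All 3 Tet tcKO libraries stood above all others, and Cre- and tHet overlapped. Its log2 fold change was 1.26 against Cre- (standard error 0.22, limma adjusted p = 0.000678) and 1.11 against tHet (standard error 0.22, limma adjusted p = 0.00252). The call against Cre- held without any of the 9 libraries. Against tHet it was lost without tHet 1 (log2 fold change 1.14, limma adjusted p = 0.0165), without Tet tcKO 1 (1.06, limma adjusted p = 0.0198) and without Tet tcKO 2 (1.07, limma adjusted p = 0.012).

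Notch2 (ENSMUSG00000027878.11, chr3:98013527-98150361), a receptor found in Müller glia and many other cells, was at 23.7, 26.7 and 29.4 CPM in Cre-. It was at 32.9, 36.2 and 37.4 CPM in tHet, and at 53.4, 52.0 and 37.5 CPM in Tet tcKO. In unscaled CPM the 3 genotypes formed steps without overlap, although Tet tcKO 3, the lowest of its genotype, barely exceeded the highest tHet library. In the fit, the log2 fold change was 0.82 against Cre- (standard error 0.22, limma adjusted p = 0.0248), 0.40 against tHet (limma adjusted p = 0.362) and 0.41 for tHet versus Cre- (limma adjusted p = 0.9998). Only the first passed an adjusted p of 0.05. It did not pass without Tet tcKO 1 (log2 fold change 0.72, limma adjusted p = 0.125) or without Tet tcKO 2 (0.74, limma adjusted p = 0.0977).

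Notch3 (ENSMUSG00000038146.8, chr17:32120820-32166852), the receptor of vascular mural cells, was at 4.00, 7.25 and 7.63 CPM in Cre-, at 9.29, 6.75 and 6.21 CPM in tHet, and at 6.18, 8.57 and 8.55 CPM in Tet tcKO. The genotypes overlapped throughout. The log2 fold change against Cre- was 0.32, with a 95% confidence interval of -0.32 to 0.95. The ratio of Notch1 to Notch2 CPM, which does not depend on scaling between libraries, was 0.692 ± 0.0604 in Cre- (SD, n = 3). In tHet it was 0.579 ± 0.0868 and in Tet tcKO 0.952 ± 0.0784. It was at least 0.898 in each Tet tcKO library and at most 0.759 in the others.

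Among the ligands, Dll1 (ENSMUSG00000014773.13, chr17:15367354-15376872), which newborn neurons present to neighbouring progenitors, had the largest log2 fold change of the 10 genes in the log2(CPM + 0.5) fit. That order depends on the scale, since by edgeR Hes5 had a larger one against tHet (2.16). It was at 11.1, 11.5 and 11.0 CPM in Cre-, at 11.2, 11.8 and 11.0 CPM in tHet, and at 45.3, 36.5 and 27.4 CPM in Tet tcKO. The Cre- and tHet libraries varied little, with a coefficient of variation of 2.50% and 3.81%, whereas that of Tet tcKO was 24.6%. These are unscaled CPM, so the spread in Tet tcKO includes the share of CT010467.1 in Tet tcKO 3. Its log2 fold change was 1.63 against Cre- (standard error 0.24, limma adjusted p = 0.00016) and 1.61 against tHet (standard error 0.24, limma adjusted p = 0.000219). Both calls held under all 20 alternatives that kept the thresholds, each single library left out included. The log2 fold change ranged from 1.46 to 1.82 against Cre- and from 1.44 to 1.80 against tHet.

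Jag1 (ENSMUSG00000027276.7, chr2:137081456-137116644), a ligand of glia and endothelium, had the highest CPM of the 10 genes in Cre- and tHet and was the only one that was lower in every Tet tcKO library. It was at 63.7, 106 and 57.6 CPM in Cre-, at 112, 98.7 and 47.7 CPM in tHet, and at 27.2, 41.9 and 21.6 CPM in Tet tcKO. No Tet tcKO library reached the lowest control library, but the spread within each genotype was wide, with coefficients of variation from 34.8% to 39.5%. Jag1 had a log2 fold change of -1.32 against Cre- (standard error 0.31, limma adjusted p = 0.0105) and -1.46 against tHet (standard error 0.31, limma adjusted p = 0.00539), so the fold was past the threshold in both and the adjusted p only against tHet. Against Cre- the gene was called after TMM scaling, the normalisation of the study (log2 fold change -1.31, limma adjusted p = 0.00683), by edgeR's quasi-likelihood test on recovered reads (-1.34, adjusted p = 0.00759) and by DESeq2, in all under 10 of 20 alternatives. It was not called under the other 10, among them without Tet tcKO 3 (-1.10, limma adjusted p = 0.116), without Tet tcKO 1 (-1.27, limma adjusted p = 0.0646), without Cre- 2 or Cre- 3, with upper-quartile scaling (limma adjusted p = 0.0109) and with CT010467.1 left out (-1.16, limma adjusted p = 0.0313). Against tHet the call was lost without CT010467.1 (-1.32, limma adjusted p = 0.0186) and without any filter (limma adjusted p = 0.0326). It was also lost without tHet 1 (-1.22, limma adjusted p = 0.0445), tHet 2 (-1.32, limma adjusted p = 0.0263), Tet tcKO 1 (-1.41, limma adjusted p = 0.0421) or Tet tcKO 3 (-1.25, limma adjusted p = 0.0811).

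Dll4 (ENSMUSG00000027314.6, chr2:119325784-119335962), the ligand of vascular tip cells, was scarce. It was at 0.294, 0.700 and 0.405 CPM in Cre-, at 0.360, 1.45 and 1.14 CPM in tHet, and at 2.26, 1.12 and 0.482 CPM in Tet tcKO, and the genotypes overlapped. The log2 fold change against Cre- was 0.78, with a 95% confidence interval of -0.04 to 1.61 (limma adjusted p = 0.353). The ratio of Dll1 to Jag1 CPM brings the opposed ligands together. It was 0.158 ± 0.0436 in Cre- (SD, n = 3), and 0.15 ± 0.0711 in tHet. In Tet tcKO it was 1.27 ± 0.397, and its lowest value there, 0.871, was above the highest value elsewhere, 0.232. The pair was chosen after the values were seen, and the ratio is a description with no test.

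**Figure D2:**
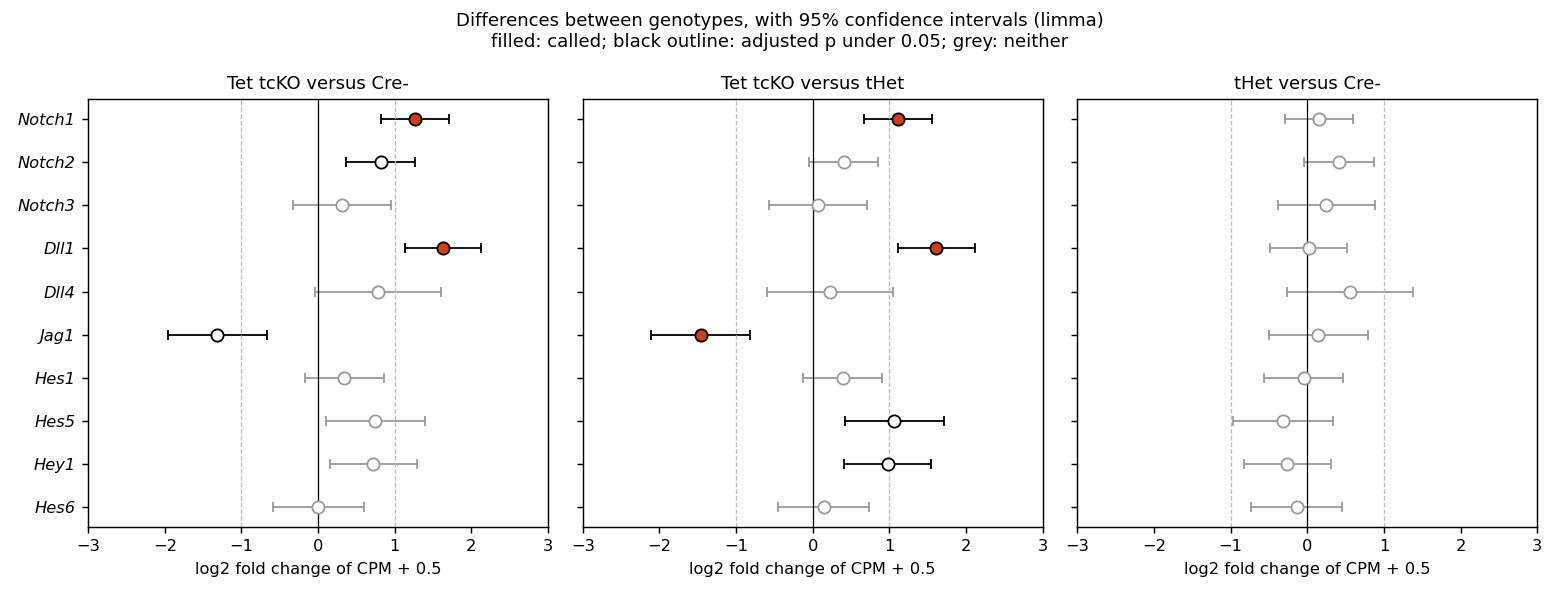
log2 fold change of each of the 10 genes in the 3 comparisons, with the 95% confidence interval from limma, dashed lines at the fold threshold and a line at 0. Filled points are called genes (Dll1 and Notch1 against both controls, Jag1 against tHet), black outlines mark an adjusted p under 0.05, and no gene is marked in tHet versus Cre-.

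Among the target genes, Hes5 (ENSMUSG00000048001.7, chr4:154960923-154962371), a direct target that marks Notch activity in progenitors, was at 0.471, 0.573 and 0.338 CPM in Cre- and at 0.432, 0.312 and 0.0947 CPM in tHet. It was at 1.01, 0.988 and 1.32 CPM in Tet tcKO, above every other library. These levels rest on few reads, and the value of 3 reads, taken as the floor of detection, was 0.142 to 0.312 CPM, which the tHet 3 library did not reach. Hes5 had a log2 fold change of 0.74 against Cre- (standard error 0.31, limma adjusted p = 0.205) and 1.06 against tHet (standard error 0.31, limma adjusted p = 0.0466). At this depth a 0.5 CPM pseudocount understates such a fold, and edgeR on recovered reads gave 1.30 (adjusted p = 0.174) and 2.16 (adjusted p = 0.0408). Against tHet, Hes5 had an adjusted p under 0.05 in 8 of 19 alternatives and was called in 0. The largest was 0.13 (limma), without tHet 3.

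Hey1 (ENSMUSG00000040289.8, chr3:8663359-8667256), a target in glia and vessels, was at 10.0, 6.87 and 8.57 CPM in Cre-, at 6.41, 7.06 and 7.34 CPM in tHet, and at 18.3, 14.0 and 11.0 CPM in Tet tcKO. All Tet tcKO libraries were above the others in unscaled CPM, Tet tcKO 3 closest to them. Hey1 had a log2 fold change of 0.72 against Cre- (standard error 0.27, limma adjusted p = 0.148) and 0.98 against tHet (standard error 0.27, limma adjusted p = 0.0358). Of 20 alternatives, it was called against tHet in only 2, by DESeq2 (1.09, adjusted p = 0.00127) and with CT010467.1 left out (1.12, limma adjusted p = 0.00487). In the other 18 it was not called. The adjusted p was under 0.05 in 14 of the 20 and rose to 0.227 (limma) without Tet tcKO 1.

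Hes1 (ENSMUSG00000022528.8, chr16:30064384-30067796), which keeps progenitors and glia from neuronal fate, was at 11.7, 11.4 and 13.8 CPM in Cre-, at 14.0, 9.76 and 12.1 CPM in tHet, and at 13.7, 17.0 and 16.5 CPM in Tet tcKO. The genotypes overlapped through Tet tcKO 1. Against Cre- the log2 fold change was 0.34, with a 95% confidence interval of -0.17 to 0.86 (limma adjusted p = 0.613). Hes6 (ENSMUSG00000067071.8, chr1:91411483-91414038), which favours neuronal differentiation, was at 8.06, 6.49 and 9.65 CPM in Cre-, at 7.27, 6.34 and 8.05 CPM in tHet, and at 10.5, 7.84 and 6.20 CPM in Tet tcKO. Its log2 fold change against Cre- was 0.00, with a 95% confidence interval of -0.59 to 0.60.

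In tHet versus Cre-, none of the 10 genes was called, where 0.0422% of all genes tested were called and 0.0938% had an adjusted p under 0.05. The adjusted p from limma was 0.9998 for each of the 10, and the log2 fold changes ran from -0.32 for Hes5 to 0.56 for Dll4. Only Notch2 had libraries that did not overlap, where 11.1% of all genes were so ordered in either direction. No member was called in this comparison under any of the alternatives.

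Levels were set side by side per length, as CPM per kilobase of exon. In Cre- the order was Jag1 (13.0 ± 4.56), Hes1 (6.03 ± 0.634), Hes6 (4.46 ± 0.875), Dll1 (2.65 ± 0.0662), Hey1 (2.60 ± 0.481), Notch2 (2.47 ± 0.265), Notch1 (1.29 ± 0.0362), Notch3 (0.778 ± 0.246), Hes5 (0.338 ± 0.0865) and Dll4 (0.121 ± 0.0544), each with the SD over 3 libraries. Dll1, Hey1 and Notch2 did not differ beyond their spread. In Tet tcKO the order opened with Dll1 (8.63 ± 2.12) and Hes1 (7.72 ± 0.885), which did not differ beyond their spread. They were followed by Jag1 (5.19 ± 1.80), Hes6 (4.52 ± 1.19), Hey1 (4.43 ± 1.12) and Notch2 (4.42 ± 0.818), again within their spread. Notch1 (3.15 ± 0.356), Notch3 (0.96 ± 0.17), Hes5 (0.813 ± 0.138) and Dll4 (0.334 ± 0.233) came last. The tHet order was that of Cre- except that Notch2 (3.30 ± 0.217) stood above Dll1 (2.69 ± 0.102) and Dll4 (0.255 ± 0.146) above Hes5 (0.205 ± 0.125).

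Some exons are shared with other annotated genes, and the sources used here do not say whether strand was used in counting. Notch1 shares 1068 bp with 0610009E02Rik on the opposite strand, which was at 0.270 to 1.05 CPM over the 9 libraries. Hes5 shares 433 bp with Gm20421, which was at 0 to 0.072 CPM. Dll1 shares 867 bp on the opposite strand with A930024N18Rik, which was not analysed here. Notch2 shares 541 bp on its own strand with Gm42820, which was at 0.0589 to 1.97 CPM.

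The rest of the pathway was read from a list of 50 further genes, of which 46 passed the filter. None was called against Cre-, and 1, the corepressor gene Tle3, was called higher against tHet. Of all genes tested, 2.03% were called higher and 1.57% lower against Cre-, and 1.39% and 1.61% against tHet. The median log2 fold change was 0.11 against Cre- and 0.10 against tHet. At an adjusted p under 0.05, 5 genes were higher against Cre- (Tle3, Maml2, Hey2, Tle1 and Dlk1) and 5 against tHet (Tle3, Hey2, Tle1, Maml2 and Heyl), and 0 were lower in either. Of all genes tested, 6.5% and 5.95% passed this threshold in either direction. Dlk1 passed the filter on low values through Tet tcKO alone. Tle1, Dlk1 and Heyl are named here because the counts are small, having been chosen after their values were seen.

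Tle3, a Groucho corepressor recruited by HES proteins, was at 89.5, 83.9 and 94.4 CPM in Cre-, at 71.6, 86.5 and 103 CPM in tHet, and at 213, 187 and 135 CPM in Tet tcKO. Its log2 fold change was 0.97 against Cre- (limma adjusted p = 0.00816) and 1.02 against tHet (limma adjusted p = 0.00641). The call against tHet was lost without tHet 1 (0.89, limma adjusted p = 0.0719), Tet tcKO 1 (0.88, limma adjusted p = 0.0575), Tet tcKO 2 (0.97), tHet 2 or Cre- 3 (1.02 each). Maml2, a Mastermind coactivator, was at 18.6, 18.9 and 20.9 CPM in Cre- and at 48.9, 43.1 and 28.8 CPM in Tet tcKO, a log2 fold change of 1.00 (limma adjusted p = 0.0117). Every Tet tcKO library of both genes stood above every other library.

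Hey2, a target related to Hey1, was at 14.1, 19.3 and 15.8 CPM in Cre-, at 15.8, 17.9 and 14.4 CPM in tHet, and at 30.8, 30.8 and 25.9 CPM in Tet tcKO. Its log2 fold change was 0.82 against Cre- (limma adjusted p = 0.0339) and 0.85 against tHet (limma adjusted p = 0.0299), short of the call. Heyl, another Hey gene, was at 0.573 to 1.01 CPM in Cre- and at 4.33, 2.31 and 1.20 CPM in Tet tcKO. The remaining steps of the pathway held no gene with an adjusted p under 0.05 in either comparison. These were the 5 glycosylation genes, the 2 ADAM proteases, the 7 gamma-secretase genes, the 3 ligand endocytosis genes and the 8 turnover genes. Rbpj, on which all Notch target activation rests, averaged 51.9 CPM in Cre- against 52.5 CPM in Tet tcKO, a log2 fold change of 0.01.

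**Figure D3:**
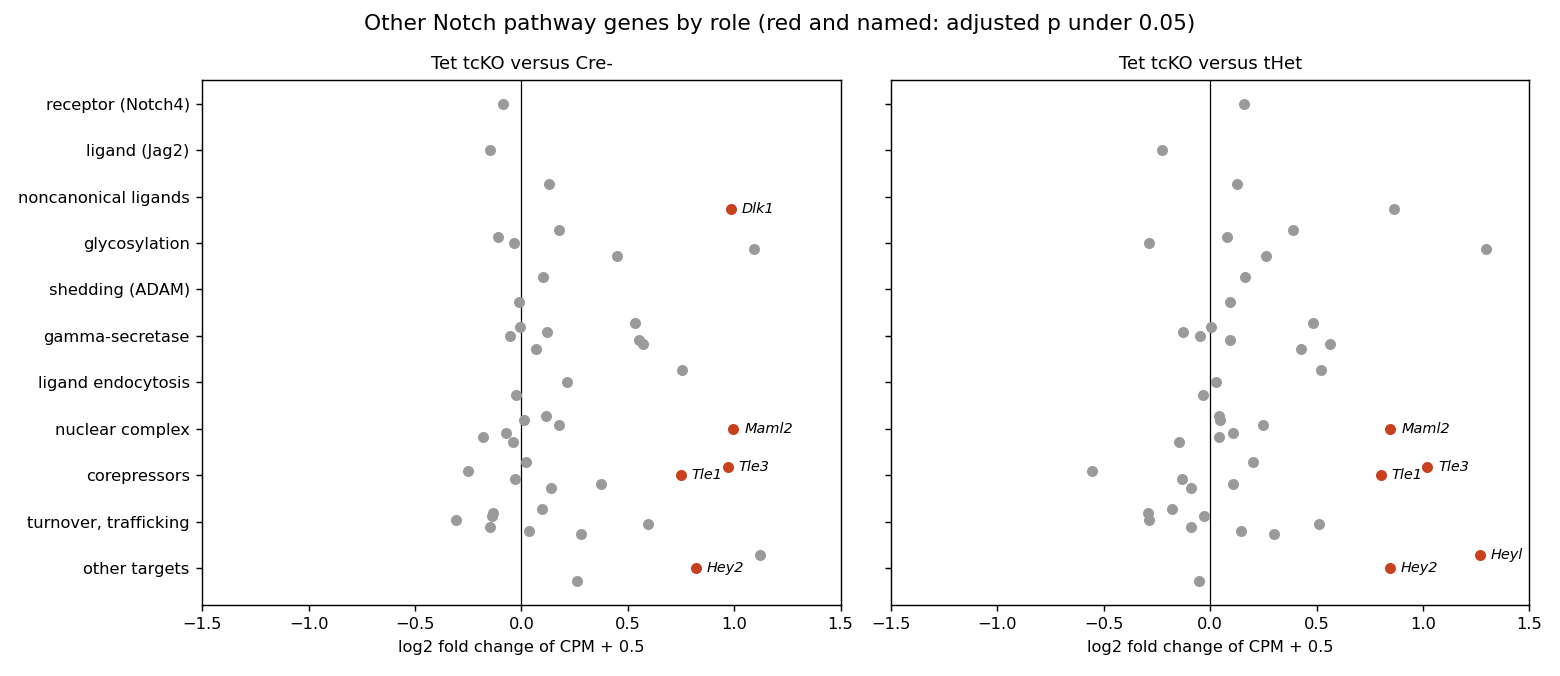
log2 fold change of the 46 other tested Notch pathway genes, arranged by role, in Tet tcKO versus Cre- and versus tHet. Red points with names have an adjusted p under 0.05, and all of these lie to the right of 0, while the protease, gamma-secretase and turnover genes hold none.

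Proneural genes, which HES proteins repress, were read from a list of 5. Atoh7, needed for ganglion cell production, was at 0.118, 0.318 and 0.473 CPM in Cre-, at 0.144, 0 and 0.237 CPM in tHet, and at 2.02, 1.71 and 1.32 CPM in Tet tcKO. It was called higher against Cre- (log2 fold change 1.46, limma adjusted p = 0.00575) and against tHet (1.81, limma adjusted p = 0.00101). It passed the filter through Tet tcKO alone, since no control library reached 0.5 CPM, and Cre- 1, tHet 1 and tHet 2 held fewer than 3 reads, so its call had to favour Tet tcKO and is given as a description. The call against Cre- was lost without any single library of Cre- or Tet tcKO, at log2 fold changes of 1.28 to 1.61 and adjusted p of 0.0131 to 0.0399, and that against tHet without Tet tcKO 1 (1.70, limma adjusted p = 0.011). Neurod1 was at 185 to 244 CPM in Cre- and 252 to 298 CPM in Tet tcKO, with a log2 fold change of 0.33 (limma adjusted p = 0.542). In both comparisons Atoh7 was the only gene of the 5 that was called, where 2.03% of all genes tested were called higher against Cre- and 1.39% against tHet. All 5 log2 fold changes were above 0 in each comparison. In each, 2 of the 5, Atoh7 included, had an adjusted p under 0.05, where 6.5% and 5.95% of all genes passed. Every Tet tcKO library lay above every library of the control in 3 of the 5, where 10% and 7.35% of all genes were so ordered.

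Whole retina holds many cell types. Markers of several types moved with the Notch genes, and their part in the results was not tested. Of all genes tested, 2.03% were called higher and 1.57% lower against Cre-, and 1.39% and 1.61% against tHet. The counts of called markers in this and the next paragraphs stand beside these shares. Summed over 8 marker genes, the rod level was 0.114 to 0.327 of the Cre- mean in Tet tcKO, and 6 of the 8 genes were called lower against either control. The cone level was 3.09 to 4.81 times the Cre- mean, with 6 of 8 genes called higher and 1 lower. Progenitor markers summed to 22.9 to 39.0 CPM in Tet tcKO and to 11.3 to 16.3 CPM elsewhere. Of the 8 progenitor genes 4 passed the filter, of which 2 were called higher against Cre- and 0 against tHet, and Ccnd1 alone made up 68.3% of the mean sum.

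Müller glia markers, the type in which Jag1 and Hes1 are best known in the mature retina, moved in both directions. Their sum was 1523 to 2294 CPM in Tet tcKO, 2170 to 2874 CPM in Cre- and 2082 to 2660 CPM in tHet. Against Cre-, 3 of the 12 genes were called lower and 1 higher, and against tHet 4 lower and 1 higher. Glul, the glutamine synthetase gene, was at 350, 514 and 301 CPM in Tet tcKO and at 802 to 1159 CPM in the others (log2 fold change against Cre- -1.40, limma adjusted p = 0.00147). Rlbp1, a retinaldehyde carrier, was at 46.1, 86.5 and 49.5 CPM against 150 to 217 CPM (-1.64, limma adjusted p = 0.000132), and the transporter gene Abca8a had a log2 fold change of -1.60 (limma adjusted p = 0.000657). Car14, a carbonic anhydrase gene, was called lower against tHet only (-1.75, limma adjusted p = 0.00278). Crym rose, at 79.2 to 97.4 CPM against 21.1 to 26.9 CPM (2.01, limma adjusted p = 2.52e-06). The calls of Rlbp1 and Crym held without each library. Against Cre-, Glul was not called without Cre- 3 (-1.38, limma adjusted p = 0.0116) or Tet tcKO 1 (-1.35, limma adjusted p = 0.0138), nor Abca8a without Tet tcKO 1 (-1.38, limma adjusted p = 0.0106) or Tet tcKO 3 (-1.39, limma adjusted p = 0.0184). Against tHet, Glul was called in the full fit (-1.18, limma adjusted p = 0.00688) and not without Cre- 3, any tHet library, Tet tcKO 1 or Tet tcKO 3, with adjusted p of 0.0139 to 0.0487. Abca8a was not called against tHet without tHet 1, tHet 2, Tet tcKO 1 or Tet tcKO 3, with adjusted p of 0.0133 to 0.0506, nor Car14 without Tet tcKO 1 (limma adjusted p = 0.0357) or Tet tcKO 3 (limma adjusted p = 0.0486). In the 4 lower Müller genes, which were named because they were called, each Tet tcKO library lay below every control library. Over the whole list of 12, the log2 fold change was above 0 in 6 and below 0 in 6 in each comparison. Of the 12 Müller genes, every Tet tcKO library lay below every Cre- library in 5 and above in 3. Against tHet these counts were 4 below and 5 above. Of all genes tested, 9.6% were so ordered lower and 10% higher against Cre-, and 9.68% and 7.35% against tHet.

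Vascular markers bear on Dll4, Jag1, Hey1 and Notch3. The sum over 10 endothelial genes was 211 to 335 CPM in Tet tcKO and 225 to 284 CPM elsewhere. The VEGF receptor gene Kdr alone made up 56.7% of the mean sum. Against Cre-, the log2 fold change was above 0 in 7 of the 10 genes and below 0 in 3. Every Tet tcKO library lay above every Cre- library in 4 genes and below in 1, where 10% and 9.6% of all genes tested were so ordered. In both comparisons 1 of these genes was called lower, the VEGF receptor gene Flt1 (22.4, 52.8 and 23.3 CPM in Tet tcKO against 84.8 to 132 CPM, log2 fold change against Cre- -1.89, limma adjusted p = 0.00016). That call was lost without Tet tcKO 3 (-1.71, limma adjusted p = 0.0107), as was the call against tHet (-1.66, limma adjusted p = 0.0139). Kdr, the other VEGF receptor gene, had a log2 fold change of 0.55 against Cre- (limma adjusted p = 0.179) and the junction gene Cdh5 one of 0.97 (limma adjusted p = 0.165). The sum over 8 mural genes was 92.4 to 189 CPM in Tet tcKO and 67.6 to 127 CPM elsewhere, with no gene called. Of the mural genes with the smallest adjusted p against Cre-, Rgs5 had a log2 fold change of 0.63 (limma adjusted p = 0.252), Cspg4 of 0.26 (adjusted p = 0.858) and Abcc9 of 0.26 (adjusted p = 0.805). Microglial markers summed to 36.2 to 71.1 CPM in Tet tcKO and 25.9 to 43.4 CPM elsewhere. No gene of any marker list was at 0 in all libraries.

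Of the other lists, bipolar markers summed to 0.574 to 1.01 of the Cre- mean in Tet tcKO, amacrine and horizontal markers to 0.699 to 1.43 and ganglion cell markers to 0.506 to 0.806. Astrocyte markers summed to 1.17 to 3.43 of it and pigment epithelium markers to 0.282 to 0.445. Against Cre-, 1 of 8 bipolar genes was called higher and 2 lower, 1 of 8 amacrine and horizontal genes lower, 1 of 8 microglial genes higher and 1 of 5 tested pigment epithelium genes lower. Against tHet, 1 bipolar gene was called higher, and 1 amacrine and horizontal, 1 ganglion cell and 2 pigment epithelium genes lower. No other gene of these lists was called. The shares over all genes tested were 2.03% higher and 1.57% lower against Cre-, and 1.39% and 1.61% against tHet.

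**Figure D4:**
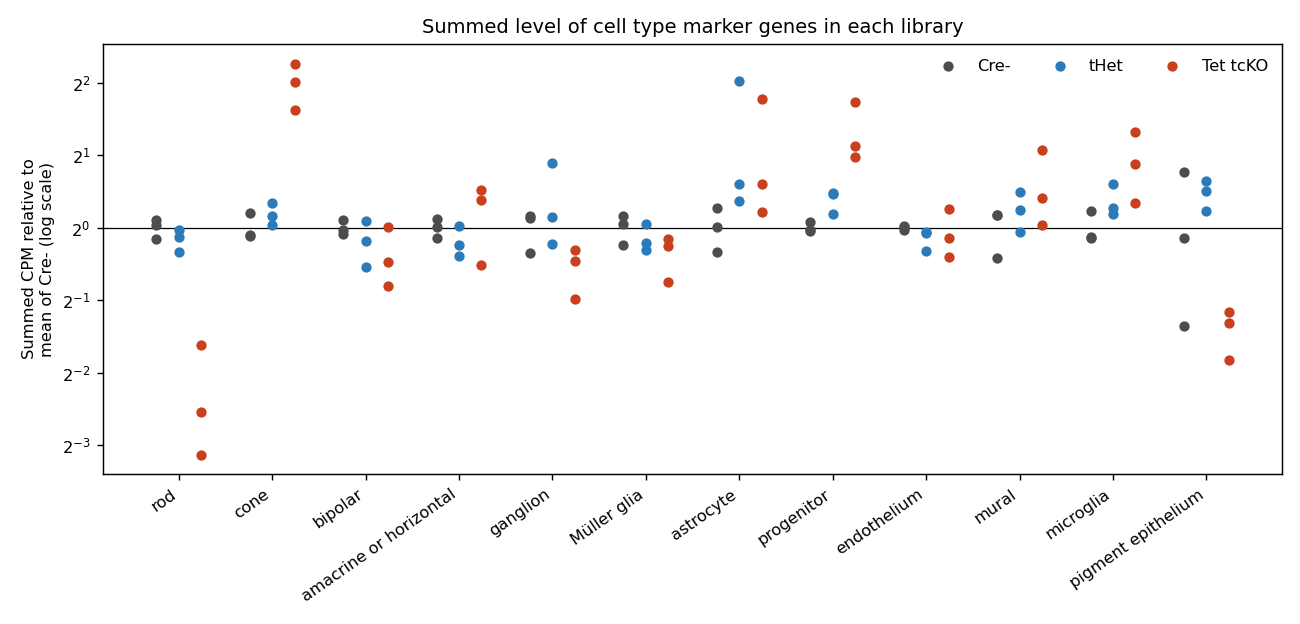
Summed CPM of marker genes of 12 cell types in each library, relative to the mean of the Cre- libraries, on a log scale. Rod markers lie at 0.114 to 0.327 and cone markers at 3.09 to 4.81 in Tet tcKO, while endothelial markers lie at 0.754 to 1.20 and Müller glia markers at 0.593 to 0.893. Kdr alone makes up 56.7% of the mean endothelial sum.

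The genes whose profile over the 9 libraries was most like those of Dll1 and Notch1 were sought among 13005 coding genes with a mean of at least 1 CPM, by the root mean square difference of centred log2(CPM + 0.5). For Dll1 these were Mcc (0.0825), Galns, a lysosomal sulfatase gene (0.105), and Prlr, the prolactin receptor gene (0.106). Mcc was at 34.1 to 37.1 CPM in Cre- and 86.7 to 129 CPM in Tet tcKO. For Notch1 they were Acbd6 (0.124), the desmosomal cadherin gene Dsc2 (0.135) and Smco4 (0.147). Acbd6 was at 28.3 to 29.1 CPM in Cre- and 50.9 to 78.4 CPM in Tet tcKO. The measure is a description over the same 9 libraries.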

How the data were processed

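Bulk RNA-seq of whole P21 retina was deposited as a table of 9 libraries, 3 for each of Cre-, tHet and Tet tcKO, which were grouped by their sample labels. Trimmed reads were mapped by the authors with STAR (2.7.0f) onto mm10 and counted on genes with HTSeq (0.11.2), and CPM values were deposited, per the labels and the study's methods. The table also holds the authors' own fold changes and p-values, which were not used. Every positive CPM value was a whole multiple of 1 read (100%, within 0.01 of a whole number), so reads were recovered for the count tests. Intervals and floors from depth cover counting error only.

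The deposited CPM were put on the log2(CPM + 0.5) scale and fitted in limma 3.58.1 (lmFit, eBayes with trend; R 4.3.3), with all 9 libraries in a single fit and p-values adjusted over all 21330 genes tested. Whether the libraries of a genotype were separate litters is not given in the sources used here, and p-values measure the spread between these libraries. All libraries were sequenced in 1 pool, which leaves no batch to compare within. Alternatives were pseudocounts of 0.1 and 1, other filters, TMM and upper-quartile scaling, leaving out CT010467.1, edgeR 4.0.16 and DESeq2 1.42.0 on recovered reads, a replicate block, the 6 libraries compared alone, each library left out, and other thresholds.

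The 10 genes, the further lists and the alternatives were chosen with earlier results of these data known. Named beside the 10 genes were those of the other pathway, proneural, Müller, endothelial and mural lists that were called in any comparison, and the 3 with the smallest adjusted p against Cre- in each list. The other marker lists are given as counts and sums. Tle1, Dlk1, Heyl, Rbpj and Ccnd1 lie outside this rule, as do the ratios of members, and were chosen after their values were seen. Nearest profiles were sought for the 2 members with the smallest adjusted p against Cre-. Reads over single exons and proteins were not analysed here, and some listed genes are not reported by name.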

Additional observations from a re-analysis of the deposited data

How the results depend on the processing

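Over the 20 settings that kept the thresholds, the calls of Dll1 against both controls and of Notch1 against Cre- held in all 20, and no gene of the 10 was called in tHet versus Cre-. With the looser thresholds counted as well, there were 438 values of the 10 genes against Cre- and tHet. Of these, 402 kept direction and call, 9 lost a call, 18 gained one and 9 changed sign. The gained calls include some that came from the looser thresholds alone. At an adjusted p under 0.05 with no fold threshold, 4 of the 10 were called against Cre- and 5, Hes5 among them, against tHet. At the main thresholds, 1 to 3 were called against tHet with 1 library left out. Over all genes, 768 were called against Cre-, 640 against tHet and 9 in tHet versus Cre-. In that order, the counts were 417, 351 and 1 with no filter, 1156, 1104 and 20 at an adjusted p under 0.05, and 1387, 1270 and 20 without the fold threshold. With 1 library left out they ran from 360 to 976, from 287 to 959 and from 0 to 17. The lowest counts against Cre- and tHet came without Tet tcKO 1. DESeq2 gave 1046 against tHet and 40 in tHet versus Cre-, and the 6 libraries compared alone gave 1013 against tHet. TMM scaling, upper-quartile scaling, leaving out CT010467.1, edgeR and the 6 libraries alone each gave 1 in tHet versus Cre-. Leaving out CT010467.1 moved the split of higher to lower calls from 434 and 334 to 613 and 222 against Cre-, and from 297 and 343 to 427 and 215 against tHet, with a median log2 fold change of all genes of 0.14 and 0.07. TMM scaling gave 361 and 307 against tHet.

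With the replicate block, 1127, 1125 and 40 genes were called and 3, 3 and 0 of the 10, Jag1 being added against Cre-. Deviations from genotype means correlated at a mean of 0.111 over 9 same-numbered pairs (-0.35 to 0.56) and of -0.0515 over 18 others (-0.57 to 0.50). These pairs share libraries, so the correlations cannot settle whether the numbers pair the samples.

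The sign changed, with 1 library left out, for Hes6 against Cre- (-0.18 to 0.17) and, against tHet, for Hes6 (-0.0403 to 0.31), Notch3 (-0.0423 to 0.23), Dll4 (-0.15 to 0.59), Cspg4 (-0.33 to 0.14), Abcc9 (-0.37 to 0.00825) and Tet2 (-0.22 to 0.26). Hes6 against Cre- was -0.0038 by DESeq2. The cause was not tested. Depth limits Hes5, Dll4 and Atoh7, which rest on few reads.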
